A study of Petromyzon marinus and Lampetra planeri with 28 samples.

Results

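The *Foxd3* locus of the sea lamprey, *Petromyzon marinus*, is locus XLOC_039546 of a transcriptome that the authors assembled from their own reads. It was chosen by its identifier, and is 1 locus of 72171 in the count table and 1 of 25317 that passed the filter on low counts. The name *Foxd3* comes from the study's supplementary gene lists. No sequence was used here to check it. Accessible regions of both lampreys were read beside the gene, 43 consensus peaks of 236315 in the sea lamprey and 41 of 314377 in the brook lamprey, *Lampetra planeri*, all within 50 kb of the locus. The 35 loci within 200 kb were also described.

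RNA-seq was made from dorsal neural tubes (DNT) cut from the heads of sea lamprey embryos at Tahara stages T18 (3 libraries of 30 embryos each), T20 (2 libraries of 35) and T21 (3 libraries of 35). The tissue held premigratory to delaminating neural crest (NC) cells together with dorsal neural and ectodermal cells, so it was a mixture. ATAC-seq, which marks open chromatin, came from 9 sea lamprey and 10 brook lamprey libraries of T20 and T21 DNT and T23 heads. The peaks were deposited as 1 merged set for each species, with no value for a stage or a library. The labels give no genotype or treatment. The RNA-seq groups differ in stage and, between T18 and the later stages, in embryos per pool.

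*Foxd3* encodes a forkhead-box transcription factor, a DNA-binding protein of the winged-helix family. In jawed vertebrates it is one of the early NC specifiers, acting with SoxE and Snail factors downstream of the neural plate border factors, and it is known there for keeping NC progenitors undifferentiated and for its part in delamination. Forkhead relatives mark other tissues, with Foxa2 in endoderm and floor plate and Foxc1 in mesoderm.

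The RNA libraries held 12172421 to 91015285 counts. The sum over neural tube markers (9 loci of the *Sox1*, *Pax6*, *Pax2a* and *Otx2* genes) ran between 8922 and 9920 normalised counts in the T18 libraries, between 11380 and 11760 in those of T20, and between 11250 and 12600 in those of T21. Neural tube markers were thus present in every library, but the list does not single out the dorsal part. The largest T18 means in it were 4523 for *Sox1* XLOC_048580 and 3355 for *Otx2*, and the smallest was 8.84 for *Pax6a*. At T21 against T18, 6 of the 9 neural tube loci were called higher and 1 lower, so their sum hides opposite changes. The mean of *Sox1* XLOC_047453 rose from 15.8 at T18 to 1664 at T21, and that of *Otx2* fell from 3355 to 473. Markers of other cell types also moved with stage. The 13 mesoderm and endoderm loci are those of the *Tbx6*, *Meox2*, *Foxc1*, *Foxa2*, *Gata6*, *Sox17* and *Shh* genes. Their summed level was 9451 to 11190 at T18, 1292 to 2770 at T20 and 217 to 321 at T21. *Foxa2* also marks floor plate, a part of the neural tube, so this list is not exclusive to mesoderm and endoderm. The *Foxa2* loci had T18 means of 56.5, 311 and 520, and the largest member, *Foxc1* XLOC_040843, had 4820. The summed level of 10 epidermis loci was 63400 to 70040, 72730 to 120700 and 146000 to 153700. *Krt8* XLOC_028492, singled out after its values were seen, made up most of that epidermal difference, and without it the sum was 62650 to 69780, 63620 to 86880 and 71790 to 83640. That remainder was largely *Cldn3* at T18, whose mean fell from 56800 to 29800 at T21, while that of *Krt8* XLOC_033574 rose from 6676 to 37930. Of the 10 epidermis loci, 7 were called higher and 2 lower at T21 against T18. Neuron markers (9 loci) summed to 178 to 336 in T18 libraries, 976 to 1000 in T20 ones and 1394 to 1545 in T21 ones, and all 9 were called higher at T21 than at T18. The sum over 7 placode loci was 786 to 916, 1136 to 1320 and 1255 to 1329, and 4 of them were called higher and 3 lower at T21 against T18. Over all loci tested, 18.9% were called higher and 14.7% lower in that comparison. The names come mostly from lists of loci that changed, so nothing is read from these counts of markers called. In a dissected tissue, a change in the share of expressing cells and a change in RNA per cell cannot be told apart.

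*Foxd3* rose at each step from T18 to T21. Its raw counts were 22, 15 and 38 at T18, 144 and 345 at T20, and 959, 1233 and 6182 at T21. After scaling for depth these became normalised counts of 27.5, 12.4 and 10.3 at T18, 215 and 642 at T20, and 1866, 1886 and 2288 at T21. No library of one stage overlapped with any of another stage. The lowest T20 library was at 7.83 times the highest T18 library, and the lowest T21 library at 2.91 times the highest T20 library. The T18 values rest on few reads, and the highest of them came from a library with 22 counts.

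**Figure D1:**
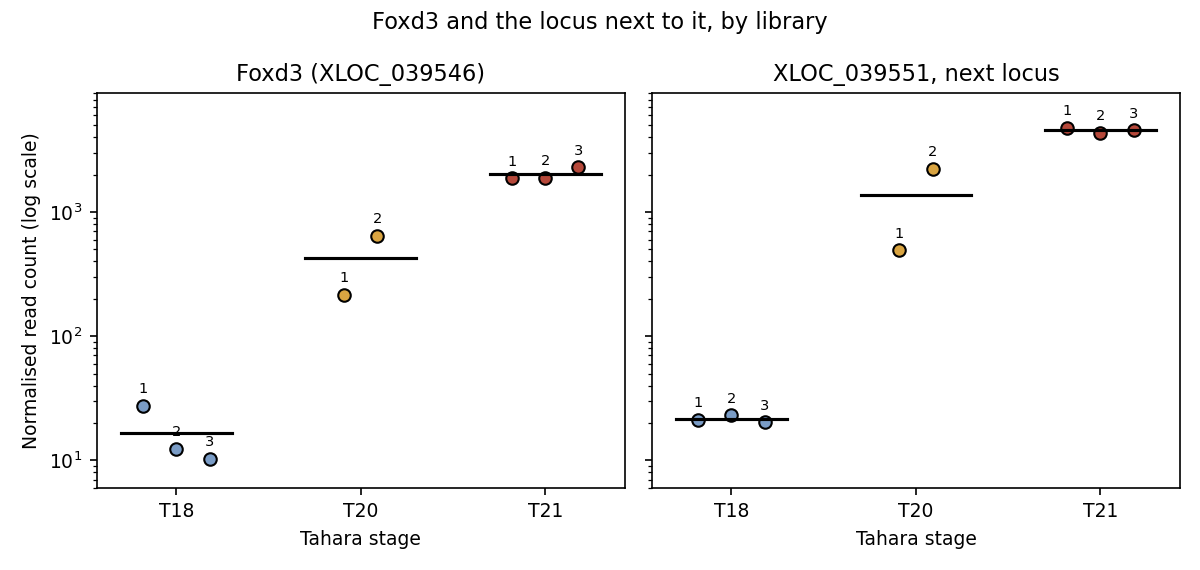
Normalised read counts (log scale) of *Foxd3* and of XLOC_039551, the locus next to it, in each library by Tahara stage. Points are libraries with their replicate number and black bars are stage means. *Foxd3* lies at 10.3 to 27.5 at T18 and at 1866 to 2288 at T21, and in both panels the T20 replicates lie farther apart than the T21 replicates.

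The edgeR quasi-likelihood test across all loci called each step, with Benjamini-Hochberg adjustment. For T20 against T18 the log2 fold change was 4.89 ± 0.56 (SE), which is 29.7-fold (adjusted p = 0.0011). In that comparison 10.8% of all loci tested were called higher, and in 22.1% every T20 library was above every T18 library. For T21 against T20 the log2 fold change was 2.24 ± 0.46, which is 4.73-fold (adjusted p = 0.026), against a background of 5.40% called higher and 22.3% with every T21 library above every T20 library. For T21 against T18 it was 7.14 ± 0.53, which is 141-fold (adjusted p = 4.7e-05), with 18.9% of loci called higher and 26.9% not overlapping in that direction. The adjacent-stage comparisons share the T20 libraries. The T21 against T20 call was lost without T21 replicate 1 (log2 fold change 2.30, adjusted p = 0.054) and without T21 replicate 3 (2.12, adjusted p = 0.054), and also when loci of low count were kept in the fit (2.28, adjusted p = 0.12). The libraries are pools of embryos, and the p-values measure the spread between these pools.

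The T20 libraries lay farther apart than those of T21. *Foxd3* was 2.98 times as high in T20 replicate 2 as in replicate 1, whereas the highest T21 library was 1.23 times the lowest and the highest T18 library 2.67 times the lowest. Without T20 replicate 1 the T20 against T18 log2 fold change was 5.50 and the T21 against T20 value was 1.67. Without T20 replicate 2 they were 3.93 and 3.23, so that the size of each step depended on which T20 library was read. T20 libraries enter the T21 against T18 fit only through filter, scaling and shared spread, so its value could hardly move (7.16 and 7.17). The lone T20 library is in these fits assumed to vary like the other groups. Among the 4792 loci called higher at T21 than at T18, 59.7% were higher in T20 replicate 2. The median ratio of replicate 2 to replicate 1 over all 4792 was 1.11, and 5.28% had at least the ratio seen for *Foxd3*. The marker sums differed between the same libraries. Epidermis markers stood at 120700 in T20 replicate 2 and 72730 in replicate 1 (86880 and 63620 without *Krt8* XLOC_028492), and mesoderm and endoderm markers at 1292 and 2770. Their part in the *Foxd3* values was not tested.

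Levels between genes were compared as normalised counts per kb of exon. On that scale the stage mean of *Foxd3* was 4.14 at T18, 106 at T20 and 499 at T21. Of 29566 stranded loci with any count, 70.1% stood above *Foxd3* at T18, 25.8% did so at T20 and 7.44% did so at T21.

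The locus lies on scaffold scaf_00043 of the sea lamprey germline assembly, on the minus strand, and the reads were counted over 3 exon blocks of 4038 bases in all. The main blocks run from 5348238 to 5351058 and from 5351119 to 5352327, a core of 4090 bases. The third block, 5300935 to 5300942, is only 8 bases long. It belongs to 1 transcript, TCONS_00067827, whose exons of 8, 1996 and 8 bases are joined across an intron of 48120 bases, and it alone stretches the locus to 51393 bases. Of 69117 assembled transcripts with several exons, 1.7% carry an end exon of 8 bases or fewer. Whether that exon is transcribed as drawn was not tested.

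The locus holds 5 transcripts in 2 start groups. TCONS_00067838, TCONS_00067839 and TCONS_00067840 start upstream, at 5352245, 5352263 and 5352327, and have first exons of 1127, 1094 and 1166 bases. TCONS_00067827 and TCONS_00067837 start near 5351169 and 5351132, each with a first exon of 8 bases. The last exon of 2821 bases is shared by TCONS_00067837, TCONS_00067839 and TCONS_00067840. Counts were made over the locus, so the transcripts have no values of their own.

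The locus directly downstream of the core, XLOC_039551, followed a course close to that of *Foxd3*. It has no name in the lists used, lies on the same strand at 5342892 to 5347989, and ends 248 bases before the core exons of *Foxd3* begin on the scaffold. Its normalised counts were 21.2, 23.1 and 20.3 at T18, 493 and 2227 at T20, and 4765, 4363 and 4558 at T21. Its stages did not overlap, and T20 replicate 2 was again the higher of the pair. Its log2 fold change was 5.97 ± 0.71 for T20 against T18 (adjusted p = 0.0027), or 4.51 when T20 replicate 2 was left out and 6.67 when replicate 1 was, and 7.72 ± 0.70 for T21 against T18 (adjusted p = 0.00035). For T21 against T20 it was 1.75 ± 0.57 and did not pass the edgeR test (adjusted p = 0.13), although it passed with DESeq2 (1.75, adjusted p = 0.037). With 1 T20 library left it was 1.04 without replicate 1 and 3.21 without replicate 2. Per kb of exon, the level of *Foxd3* was exceeded by that of XLOC_039551 in 7 of 8 libraries, with ratios of XLOC_039551 to *Foxd3* between 0.629 in T18 replicate 1 and 2.82 in T20 replicate 2. Whether the 2 loci are parts of 1 transcript was not tested.

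Reads on the opposite strand of that stretch were scarce. XLOC_039385, an antisense locus at 5342892 to 5347957, had 21 counts over all libraries against 19263 for XLOC_039551, which is 0.109% of the pair, and 20 of them were in T21 replicate 3. The kit and the counting kept strand.

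Of the 35 neighbours, 11 lie wholly inside the *Foxd3* span as drawn, nearly all of it the long intron, and 1 overlaps it in part. Only 13 of the 35 passed the filter on low counts, and none has a name. At T21 against T18, 4 of these 13 were higher and 3 lower, with 18.9% of all loci called higher, 14.7% lower and 33.6% in either direction, and the median log2 fold change was -0.19 against -0.03 over all loci. Without T21 replicate 2 only 1 was lower. The loci inside the span that were tested, XLOC_039551, XLOC_039547 and XLOC_039548, were all higher and lie on the *Foxd3* strand. A locus near the filter passes it more readily where one stage is high, so these counts are a description.

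XLOC_039547, at 5314353 to 5318206 inside the long intron, had normalised counts of 9.99, 4.13 and 2.97 at T18, 8.97 and 1.86 at T20, and 68.1, 74.96 and 49.97 at T21. Its T18 and T20 libraries overlapped, and T20 against T18 did not pass the test (0.19 ± 0.78 on the log2 scale, adjusted p = 0.91). It rose by T21, with a log2 fold change of 3.45 ± 0.71 for T21 against T20 (adjusted p = 0.0089), or 2.81 when T20 replicate 2 was omitted and 5.03 when replicate 1 was, and 3.64 ± 0.56 for T21 against T18 (adjusted p = 0.00023). XLOC_039548, at 5318570 to 5319388, had no counts in any T18 or T20 library and 9, 6 and 38 counts at T21. Taking 3 counts over the T18 group as the limit, its T21 level was at least 25.9-fold higher, and over the T20 group at least 5.46-fold higher. In the edgeR test T21 against T18 passed (adjusted p = 0.0029) and T21 against T20 did not (adjusted p = 0.067). At T20, where *Foxd3* was called higher than at T18, neither of these low loci was. The difference between their courses and that of *Foxd3* was not tested.

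**Figure D2:**
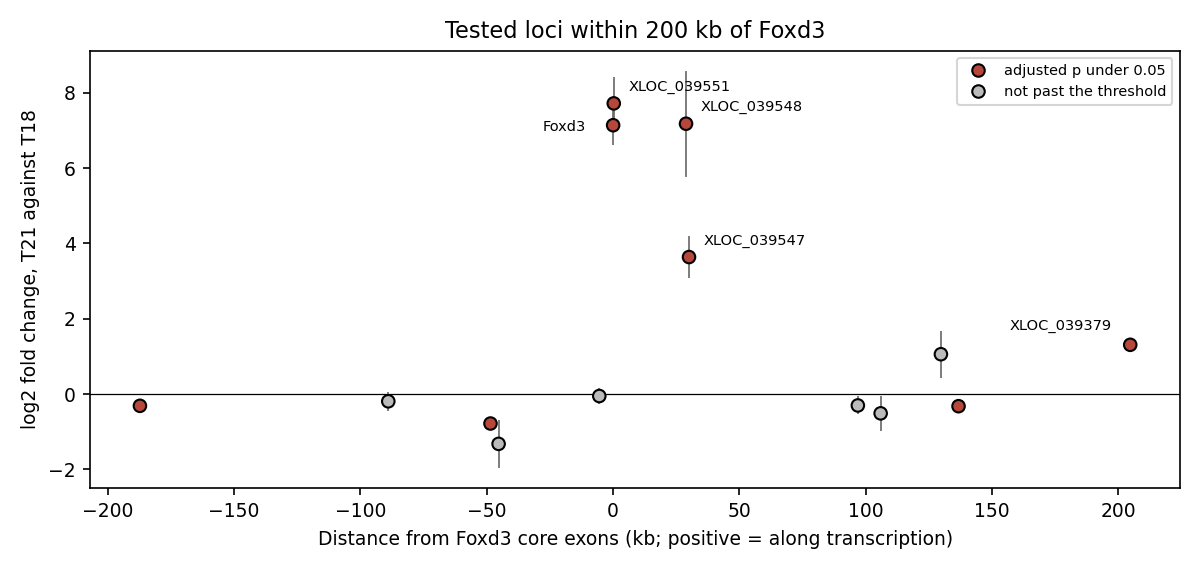
Log2 fold change, T21 against T18, of *Foxd3* and the 13 tested loci within 200 kb, by distance from the core exons in kb, with standard errors as bars. Red points passed an adjusted p of 0.05 in the edgeR test. The 4 points above 3 are *Foxd3* at 7.14, XLOC_039551 at 7.72, XLOC_039548 at 7.18, whose value rests on T18 libraries with no counts and is no measured fold, and XLOC_039547 at 3.64.

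Outside the span the called changes at T21 against T18 were between -0.78 and 1.31 on the log2 scale. The nearest upstream gene, XLOC_039552, lies on the same strand with its near edge, its 3′ end, 5475 bases beyond *Foxd3*, and had 181, 249 and 196 normalised counts at T21 against 169, 235 and 231 at T18. Its stages overlapped (log2 fold change -0.05 ± 0.20, adjusted p = 0.89). XLOC_039553, 48538 bases upstream, fell by 0.78 ± 0.13 on the log2 scale (adjusted p = 0.00032). XLOC_039379, 204653 bases downstream of the core, rose by 1.31 ± 0.13 (adjusted p = 6e-06). XLOC_039380 fell by 0.32 (adjusted p = 0.0089), a call lost without T21 replicate 2 (adjusted p = 0.057). XLOC_039823 fell by 0.31 (adjusted p = 0.041), and its call was lost in 8 of 14 alternatives. The nearest named loci lie outside the window, *urod*, a haem synthesis enzyme, at 203400 bases upstream and *Gdnf*, a neurotrophic factor, at 271808 bases downstream. These 2 distances are from the ends of the whole span. In the edgeR test of T21 against T18, *urod* rose by 0.54 ± 0.12 (adjusted p = 0.003) and *Gdnf* by 3.38 ± 0.39 (adjusted p = 2.1e-05). *Gdnf* was also called higher at T20 against T18 (1.91, adjusted p = 0.008) and at T21 against T20 (1.48, adjusted p = 0.041).

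Accessible regions were found on both sides of the gene. Within 50 kb of its start the sea lamprey set holds 27 peaks, and 15.5% of 15976 tested loci with a full window hold at least as many, where the median is 21. The brook lamprey set holds 28 peaks in the same window, a number that 76.3% of loci reach, with a median of 31. Over the wider window from the ends of the whole span there were 43 and 41 peaks, of which 15 in each species lay inside the span. Their median widths were 327 bases in the sea lamprey and 359 in the brook lamprey.

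The start base of *Foxd3* was covered by a peak in the sea lamprey set and not in the brook lamprey set. The sea lamprey peak at 5352135 to 5352396 lies over the start base of the longest upstream transcript, and a second, 5352462 to 5352856, lies just upstream of it. Among 19415 stranded loci tested, 34.4% had a sea lamprey peak over the start base and 20.6% had a brook lamprey one. The nearest brook lamprey peak, 5351039 to 5351482, ends 845 bases inside the gene and lies over the start positions of the shorter transcripts. Brook lamprey reads were mapped to the sea lamprey assembly, and the part of mapping between species in such a difference was not tested.

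None of the 6 peaks over the core exons, 2 in the sea lamprey and 4 in the brook lamprey, overlapped a peak of the other species. The closest pair, 5349614 to 5349907 in the sea lamprey and 5349343 to 5349595 in the brook lamprey, is 18 bases apart. Between the nearest overlapping peaks, centred 8197 bases upstream and 11372 bases downstream of the start, lie 11 peaks, 6 of the sea lamprey and 5 of the brook lamprey. That stretch is bounded by the nearest overlapping peaks, so none of the 11 overlaps by definition. How often runs of such length occur elsewhere was not counted. Of all peaks within 50 kb, 21 of 43 sea lamprey peaks (48.8%) overlapped a brook lamprey peak and 21 of 41 brook lamprey peaks (51.2%) a sea lamprey peak, by at least 1 base. Over the whole sets the shares were 39.1% and 29.9%.

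**Figure D3:**
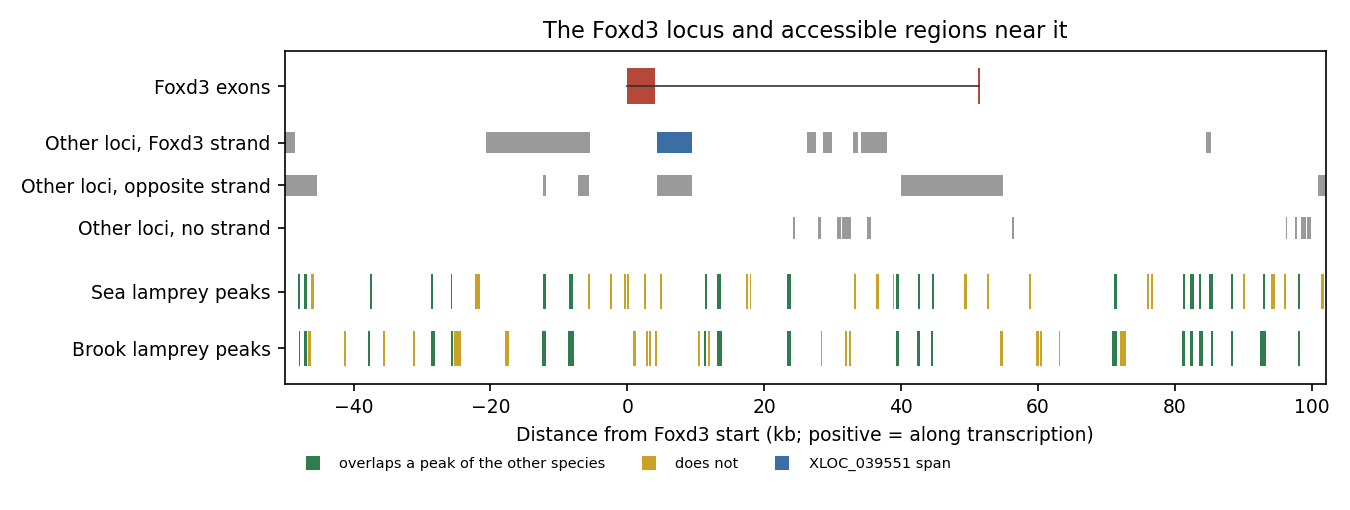
The *Foxd3* locus by distance from its start in kb, positive along transcription. Rows show the counted exons of *Foxd3*, the spans of other loci by strand, and the consensus peaks of both species, green where a peak overlaps one of the other species and yellow where it does not. The narrow red bar at the right is the 8-base exon.

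Among the shared regions, the widest in the gene's long intron were the sea lamprey peaks at 5338691 to 5339275 (585 bases) and at 5328364 to 5328944 (581 bases). The brook lamprey peaks over them run from 5338449 to 5339295 and from 5328363 to 5328956. Upstream, the sea lamprey peak at 5360209 to 5360839 was matched by a brook lamprey peak at 5360086 to 5360982. These positions come from pooled calls, so their accessibility at a given stage cannot be given.

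The other genes of the NC network were set beside *Foxd3*. Of 42 listed loci 40 were tested, and at T21 against T18 25 were higher, 11 lower and 4 did not pass, with a median log2 fold change of 1.43 against -0.03 over all loci, and 33.6% of all loci were called. At T20 against T18, 17 were higher and 7 lower, where 10.8% of all loci were higher, 6.51% lower and 17.3% called in all, and without T18 replicate 2 these counts were 12 and 2. At T21 against T20, 9 were higher and 5 lower, where 5.40% of all loci were higher, 4.40% lower and 9.80% called in all. Without any 1 of the T21 libraries 6 were higher and 2 lower at that step, and without T20 replicate 2 there were 16 and 6. The names come largely from lists of loci that changed in these samples, so nothing is read from the share of 90.0%. Border and signalling loci, such as those of *Wnt1*, *Msx2* and *Tfap2B*, had 10 higher and 3 lower of 14 at T21 against T18. In the same comparison specifiers had 6 higher and 4 lower of 12 tested. Loci of migration and receptors there had 9 higher and 4 lower of 14 tested. Over all loci tested 18.9% were higher and 14.7% lower in that comparison.

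The T20 levels of some network members are set beside their T18 and T21 levels here. They rest on 2 T20 libraries, which lay far apart for *SoxE1* and *SoxE2*. Differences between members in the level reached by T20 were not tested. *Wnt1*, a signal of the dorsal midline, had 48.7, 19.8 and 30.6 normalised counts at T18, 2184 and 2486 at T20, and 3718, 3254 and 3606 at T21. *SoxE1* (XLOC_021434), a high-mobility-group specifier, had 96.2, 39.6 and 78.9 at T18 and 4243, 4089 and 4216 at T21. At T20 it had 900 and 2761, a spread like that of *Foxd3*. *SoxE2* had 4.995, 0 and 1.352 at T18, 16.4 and 305 at T20 and 3333, 3317 and 3294 at T21. *SoxE3* had 103 and 212 at T20, overlapping its T18 values of 61.2, 44.6 and 125, and 1706, 1978 and 1709 at T21. *Ednrb*, an endothelin receptor of migrating NC, stood at 18.7, 16.5 and 5.95 at T18. It stood at 44.8 and 89.4 at T20 and at 959, 1253 and 1058 at T21. One *Twist1* locus, XLOC_018854, fell by 5.25 ± 0.51 on the log2 scale at T21 against T18 (adjusted p = 0.00033). *Snai1*, a zinc-finger specifier, fell by 0.89 (adjusted p = 0.026), a call lost without T18 replicate 3 (adjusted p = 0.091), T21 replicate 2 (0.085) or T21 replicate 3 (0.11).

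Of 16 other forkhead loci listed, 5 were higher, 10 lower and 1 did not pass at T21 against T18, with a median log2 fold change of -1.40 against -0.03 over all loci, of which 18.9% were called higher, 14.7% lower and 33.6% in all. These names too come largely from lists of loci that changed, so nothing is read from the share called. The higher count was 3 without T18 replicate 3, T21 replicate 1 or T21 replicate 2. The *Foxc1* loci fell by 5.76 ± 0.35 (XLOC_040843) and 4.1 ± 0.24 (XLOC_010705). The *Foxa2* locus XLOC_029647 had no counts at T21 against 317, 510 and 733 normalised counts at T18, a level at least 671-fold lower at a limit of 3 counts over the T21 group, and its call was lost in 2 of 14 alternatives, 1 of them the fit without the filter on low counts (adjusted p = 0.09). The *Foxc1* and *Foxa2* loci are also members of the mesoderm and endoderm marker list above. *Foxj1* (XLOC_003730), a ciliogenesis factor, rose by 3.00 ± 0.25. *Foxj1-b* (XLOC_024022) rose by 4.11 ± 0.79 in the edgeR test (adjusted p = 0.0013), from 0, 0 and 4.87 normalised counts at T18. The locus named *Foxj1b* (XLOC_021358) fell by 6.63 ± 1.16 in that test (adjusted p = 0.0029). It had 1.95, 0 and 2.96 normalised counts at T21 against 56.2, 277.5 and 333.1 at T18. *FoxD1* (XLOC_005490), the nearest relative listed, had 139.9, 88.4 and 68.1 normalised counts at T18, 369 and 391 at T20, and 101, 108.6 and 142 at T21. It rose by 1.97 on the log2 scale at T20 against T18 (adjusted p = 0.00045) and fell by 1.68 at T21 against T20 (adjusted p = 0.0034), a step at which *Foxd3* rose. Reads that map to several places were counted at each, so counts of similar copies can be shared in part.

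**Figure D4:**
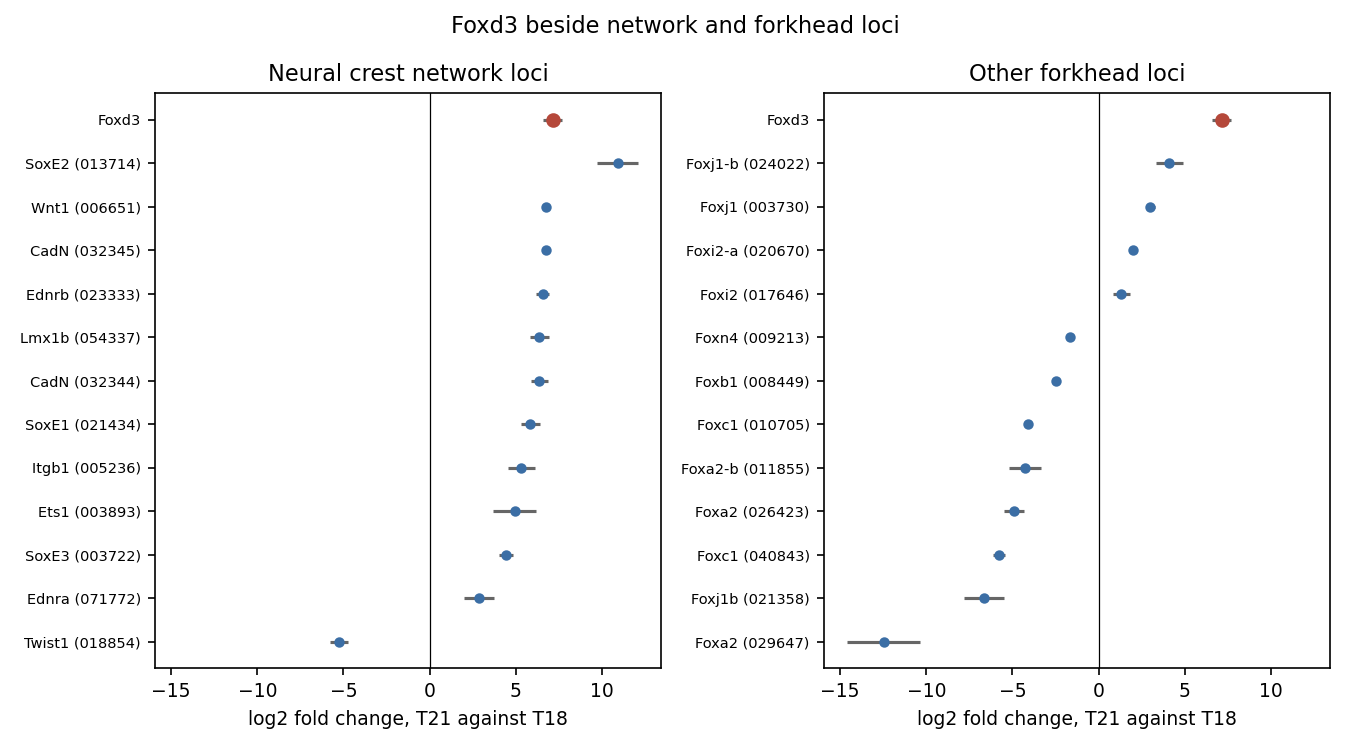
Log2 fold change, T21 against T18, with standard errors, of *Foxd3* (red) beside the 12 NC network loci and the 12 other forkhead loci with the largest changes among those called. Numbers after the names are locus identifiers. *Foxd3* at 7.14 lies among the highest network loci and above every forkhead locus shown. The *Foxa2* locus XLOC_029647 had no counts at T21, so its plotted value is no measured fold.

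The named loci whose profile was most like that of *Foxd3* were found by the root mean square difference of log2(normalised count + 1), each profile less its own mean, over the 8 libraries. Among 4703 named loci the median difference was 2.83. The smallest difference was that of XLOC_027215, named *TGFBI*, an extracellular matrix protein, at 0.28, and it was also the closest of 25316 loci. XLOC_018633 (*agr2*) at 0.41, XLOC_040186 (*PAX5*) at 0.47 and XLOC_028492 (*Krt8*, a keratin) at 0.48 came next. They were followed by XLOC_071027, also named as a keratin, at 0.53, XLOC_016653 (*LYVE1*) at 0.54 and XLOC_054490 (*GCLC*) at 0.57. *SoxE1*, listed there as *SOX10*, was 8th at 0.60 and by this measure the closest of the NC network loci. By Pearson correlation *Tfap2B* XLOC_019839 (0.989) was closer to *Foxd3* than *SoxE1* (0.987). XLOC_013521 (*Retn*) was 9th at 0.65. *WNT3* (XLOC_028783), a Wnt signal, was 10th at 0.69, with no counts at T18. XLOC_039551 differed by 0.58 and ranked 14 among all loci. *Krt8* XLOC_028492 is 1 of the 10 epidermis markers given above. The ranking is a description, since the loci share the libraries.

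**Figure D5:**
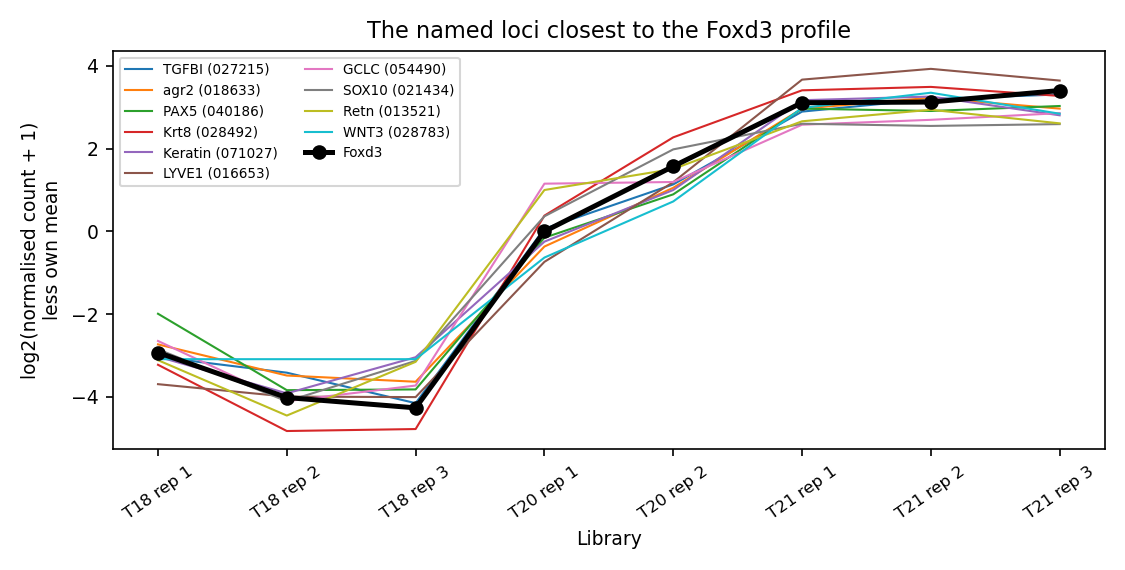
Profiles of *Foxd3* (black) and the 10 named loci closest to it, as log2(normalised count + 1) less each locus's own mean, in the 8 libraries. The lines lie somewhat closer at T21 than at T18 and T20, and do not coincide at any stage. Differences from *Foxd3* run from 0.28 to 0.69.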

How the data were processed

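Polyadenylated RNA of 8 DNT libraries was sequenced with a directional kit. The authors mapped reads to the sea lamprey germline assembly with STAR 2.4.2, assembled transcripts with Cufflinks, and counted fragments by strand with featureCounts 1.4.6-p4, reads of several placements included. The deposited values are raw counts per locus and normalised counts, a signal that the authors made by dividing counts by DESeq2 1.8.2 size factors. All non-zero normalised values equalled count over size factor within a tolerance of 1e-06, which checked the column order of the count table, whose header is shifted. ATAC-seq reads of both species were mapped with Bowtie2 to the same assembly, and peaks were called with MACS2 on merged replicates. The peak files hold positions only.

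Counts were fitted here with edgeR 4.0.16 (TMM, filterByExpr, robust quasi-likelihood) in R 4.3.3 over all 8 libraries, and p-values were adjusted by Benjamini-Hochberg over the 25317 loci tested at a threshold of 0.05. Standard errors are the absolute log2 fold change over the root of the F statistic. The test was checked on simulated data. That check covered T21 against T18 only, and neither the T20 comparisons nor the choice of scaling. DESeq2 1.42.0, other scalings, other filters and the omission of each library were alternatives. Libraries held 12172421 to 91015285 counts, and limits of detection cover counting error only. Peaks were compared by overlap of at least 1 base. The genes named are *Foxd3*, its neighbours, list members past the threshold (values for up to 12) and the 10 most similar profiles. *urod* and *Gdnf*, and the likeness rank of XLOC_039551, were added after their values were seen. The members and lists were chosen with earlier results of these data known. Names come from the study's supplementary lists, mostly of loci that changed. T20 head and embryo RNA-seq was not used here, and no sequence is printed.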

Additional observations from a re-analysis of the deposited data

How the results depend on the processing

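*Foxd3* kept its direction in all 14 alternatives of each comparison. The calls for T20 against T18 (log2 fold change 3.93 to 5.50) and T21 against T18 (6.72 to 7.48) held in all of them. Omitting a library of a stage outside the comparison leaves the compared libraries in place, so such alternatives could hardly move its size. The T21 against T20 call held in 10 and was lost in 4, with log2 fold changes of 2.28 without a filter on low counts and 2.32 with the replicate number as a block (adjusted p = 0.061), and between 1.67 and 3.23 when 1 library was left out. Correlations of same-numbered deviations from the stage means ran from -0.0385 to 0.0727, and those of unlike-numbered ones from -0.0805 to 0.0805. Deviations from a mean of 2 or 3 libraries depend on each other, so these values cannot decide whether the numbers pair the samples. The fit with this block is given here only. A fit without 1 T20 library rests on the other, assumed to vary like the other groups. The cause of these losses was not tested.

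Over all loci, T20 against T18 called 4391 loci, 2821 with the libraries of the 2 stages only and 2452 at an adjusted p of 0.01, and T21 against T20 called 2481, 953 at an adjusted p of 0.01 and 1255 to 3978 without 1 library. With upper quartile normalisation the balance of directions turned in each comparison. T20 against T18 then called 2279 higher and 2571 lower, against 2742 and 1649. T21 against T20 called 1295 and 1478, against 1368 and 1113. T21 against T18 called 4051 and 5258, against 4792 and 3717. With DESeq2 more loci were higher than lower in each comparison. The shares of all loci called higher or lower given above rest on TMM scaling. Total counts of network, forkhead and neighbouring loci at T21 against T18 stayed within 1.5 times under every alternative, but not each direction. Higher forkhead loci numbered 3 with upper quartile normalisation or at an adjusted p of 0.01, against 5. Higher neighbours numbered 7 without a filter, against 4. The block also lost the *Foxa2* XLOC_029647 call (adjusted p = 0.086). Sea lamprey peaks near *Foxd3* numbered 25 within 25 kb, 66 within 100 kb, 25 when only peaks of at least 300 bases were kept, and 28 with the window drawn from the core exons, an alternative chosen after seeing the data. Brook lamprey peaks numbered 25 within 25 kb and 72 within 100 kb. Shared peaks numbered 9 within 25 kb, 13 at 300 bases or more, and 13 from the core exons. Of the 10 most similar loci, 1 was also among the first 10 by Pearson correlation and 5 with TMM-scaled values in place of the deposited ones. At T18 *Foxd3* rests on 15 to 38 counts, which limits the size of the fold changes against it.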
